A study of Mus musculus with 6 samples.

Results

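The 58 genes described here are Atf4, genes that the ATF4 transcription factor is known to switch on, and the aminoacyl-tRNA synthetases, out of 55401 genes in the deposited count table. They were chosen by symbol, with a name pattern for the synthetases and a list of 21 names for Atf4 and its target genes. The rule itself used no values, but earlier results of these data were known when it was set. The pattern and the list matched 59 identifiers, because Ddit3 has a second identifier that was at 0 counts in every library. The genes fall into 9 transcription factors and stress regulators, 6 enzymes of amino acid and one-carbon metabolism, 6 amino acid transporters, 20 cytosolic synthetases and 17 mitochondrial synthetases. Of the 58 genes, 57 passed the filter on low counts. Cebpb, a transcription factor that pairs with ATF4, did not pass and was read 5, 1 and 7 times in the control libraries and 1 time in each NFL library.

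Messenger RNA was sequenced from mouse cells labelled as T cells, kept in medium with macrophage supernatant, 3 cultures in the control group and 3 in the NFL group. The T cells were splenic cells bound by CD8a beads. The macrophages were CD11b-bound spleen cells grown in M-CSF (50 ng/mL, 7 days), and those of the NFL group then received neurofilament light chain, an axonal protein, at 5 µg/mL over 24 h. The design text says that this NFL came from freeze-thawed sciatic nerve lysate. Control macrophages were left untreated, so both groups share macrophage-conditioned medium (50% supernatant, 2% serum), and no culture without macrophage supernatant is among the samples. Strain, age and sex of the donor mice are not stated for these libraries, and nothing says whether the 3 cultures of a group came from separate animals. The treatment was given to the macrophages, and the sample labels do not say whether each culture received its own batch of supernatant. The p-values therefore measure only the spread between these samples.

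ATF4 is the main transcription factor of the integrated stress response. When amino acids run short, uncharged tRNA activates the kinase GCN2, which phosphorylates the translation factor eIF2, and other kinases do so under endoplasmic reticulum stress, viral RNA or haem shortage. General translation then falls while translation of Atf4 mRNA rises, and ATF4 with C/EBP partners turns on amino acid synthesis, amino acid import and many cytosolic synthetases. Activated T cells depend on this supply of amino acids to grow. Much of the control of ATF4 lies in its translation, which an mRNA count does not measure.

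ATF4 and its C/EBP partners bind a composite element, searched here as TGATGNAA on both strands in RefSeq promoter windows (GRCm38.p6, 250 bases before to 50 after each start), which were at hand for 45 of the 58 genes. The genes not searched include Vars, Rars and Hars, the cytosolic genes of highest fold change, and the transporters Slc7a5, Slc1a5 and Slc7a3. It occurred in 8 of these 45 genes (17.8%), against 1219 of 27025 genes in all (4.51%). It occurred in 5 of 13 cytosolic synthetases (38.5%) and in 0 of 14 mitochondrial synthetases. The narrower form TGATGCAA, a subset of the first, occurred in 4 of 13 cytosolic synthetases and in 1.03% of all genes. The 5 genes with a match upstream of the start are shown on the strand of the gene, 5′ to 3′, with the matched bases in capitals, because their values are followed below. A match in capitals is a match of letters only and was not tested for binding.
Asns, chr6:7693210-7693262, minus strand, 15 bases before the start: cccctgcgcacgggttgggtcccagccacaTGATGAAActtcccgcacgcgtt
Chac1, chr2:119351019-119351086, plus strand, 185 bases before the start: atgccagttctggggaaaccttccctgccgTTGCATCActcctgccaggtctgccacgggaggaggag
Aars, chr8:111033700-111033767, plus strand, 104 bases before the start: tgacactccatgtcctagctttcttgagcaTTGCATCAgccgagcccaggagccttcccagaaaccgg
Gars, chr6:55037941-55038000, plus strand, 22 bases before the start: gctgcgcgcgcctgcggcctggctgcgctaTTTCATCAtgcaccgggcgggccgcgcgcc
Tars, chr15:11399659-11399703, minus strand, 7 bases before the start: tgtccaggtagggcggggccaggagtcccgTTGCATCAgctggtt
The other 3 genes with a match, Iars, Yars and Trib3, have it after the start.

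Library totals ran from 15843045 to 24639756 counts, so that 3 counts equal 0.122 to 0.189 CPM. CPM, the counts-per-million unit, are read counts scaled to the library total after TMM normalisation. Marker values in this paragraph are CPM on library totals alone. Of 9 T-cell markers, 9 were read above 3 counts, but most were low. Thy1 had a median of 1641 CPM, Cd3e 53.5, Cd4 25.9, Cd3g 7.67, Lck 4.41, Cd3d 4.14 and Trac 1.60 CPM, and Cd8a, the antigen of the selection, had 3.90 CPM and Cd8b1 1.27 CPM. The groups did not overlap for Cd3e, at 56.7 to 65.0 CPM in control and 48.8 to 50.4 CPM in NFL libraries, nor for Lck, at 4.67 to 5.93 and 3.64 to 4.16 CPM. They overlapped for every other T-cell marker and for the T-cell sum, at 1735 to 1819 CPM in control and 1663 to 1758 CPM in NFL libraries. That sum was mostly Thy1, at 1623 to 1707 CPM in control and 1566 to 1659 CPM in NFL libraries, so it says little about the other markers. Of all genes tested, 11.2% were lower with NFL without overlap and 11.5% higher. Of 8 macrophage markers, C1qa, C1qb, Itgam and Mrc1 were at 0 in every library and 2 exceeded 3 counts in any library, chiefly Cd68, at 24.5 to 27.1 CPM in control and 18.8 to 23.2 CPM in NFL libraries. Summed macrophage markers came to 24.7 to 27.4 CPM in control and 19.1 to 23.3 CPM in NFL libraries, again without overlap. Of 4 natural killer cell markers, Ncr1 and Klra8 were at 0, whereas Eomes, which CD8+ T cells also express, had 428 to 449 CPM in control and 415 to 435 CPM in NFL libraries and Klrb1c 29.9 to 33.1 CPM and 21.9 to 22.5 CPM. Their sums did not overlap, at 461 to 482 CPM and 437 to 458 CPM. The labelled CD8+ T cells thus had Thy1 and Eomes at high levels and Cd3d, Cd3g, Lck, Trac, Cd8a and Cd8b1 at low levels, with Cd4 above Cd8a. These mRNA markers did not bear out the CD8+ label, and the name T cells is used here as the label gives it. Of 5 B-cell markers 2 exceeded 3 counts, with summed CPM of 2.65 to 3.13 and 3.03 to 3.64, and of 3 erythroid markers 1 did, with a summed CPM of at most 0.244. The part of these marker differences in the results below was not tested, and in bulk RNA fewer cells of a type and less RNA per cell cannot be told apart.

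With NFL-macrophage supernatant, 1 of the 57 genes tested rose and 0 fell. The 1 gene was Vars, the cytosolic valine enzyme, and no ATF4 target passed the threshold of an adjusted p of 0.05 (edgeR's quasi-likelihood test, Benjamini-Hochberg adjustment over all genes). Across all 14082 genes tested, 986 passed (7.00%), 489 of them higher and 497 lower with NFL. That split was 372 higher and 600 lower with library size alone as the scaling, and 574 higher and 365 lower with offsets for GC content and length. At an unadjusted p under 0.05 there were 10 of the 57 genes (17.5%, 8 higher and 2 lower), against 19.3% of all genes. DESeq2 passed 0 of the ATF4 targets and synthetases, and limma-voom passed Vars. With 7.00% of all genes called, the short lists of genes below can hold 0 calls without differing from all genes.

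The log2 fold changes of the 57 genes ran from -0.23 to 0.14 with a median of 0.02, beside a median of 0.00 over all genes tested. Of the 57, 38 lay above 0 and 19 below (66.7% above, beside 49.6% of all genes). The median over all genes was -0.015 with library size alone and 0.009 with GC and length offsets, so the sign of values this near 0 depends on the scaling. The 95% interval reached 0.06 to 0.42 on the log2 scale to either side, with a median of 0.08. For 43 of the 57 genes the whole interval lay within a 15% rise or a fall of equal fold, a bound chosen after the values were seen. The median coefficient of variation between replicate libraries was 3.29% in control and 2.50% in NFL cultures. The libraries of the groups did not overlap in 7 genes that were higher with NFL, where 11.5% of all genes did so, and in 2 genes that were lower, where 11.2% of all genes did so.

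**Figure D1:**
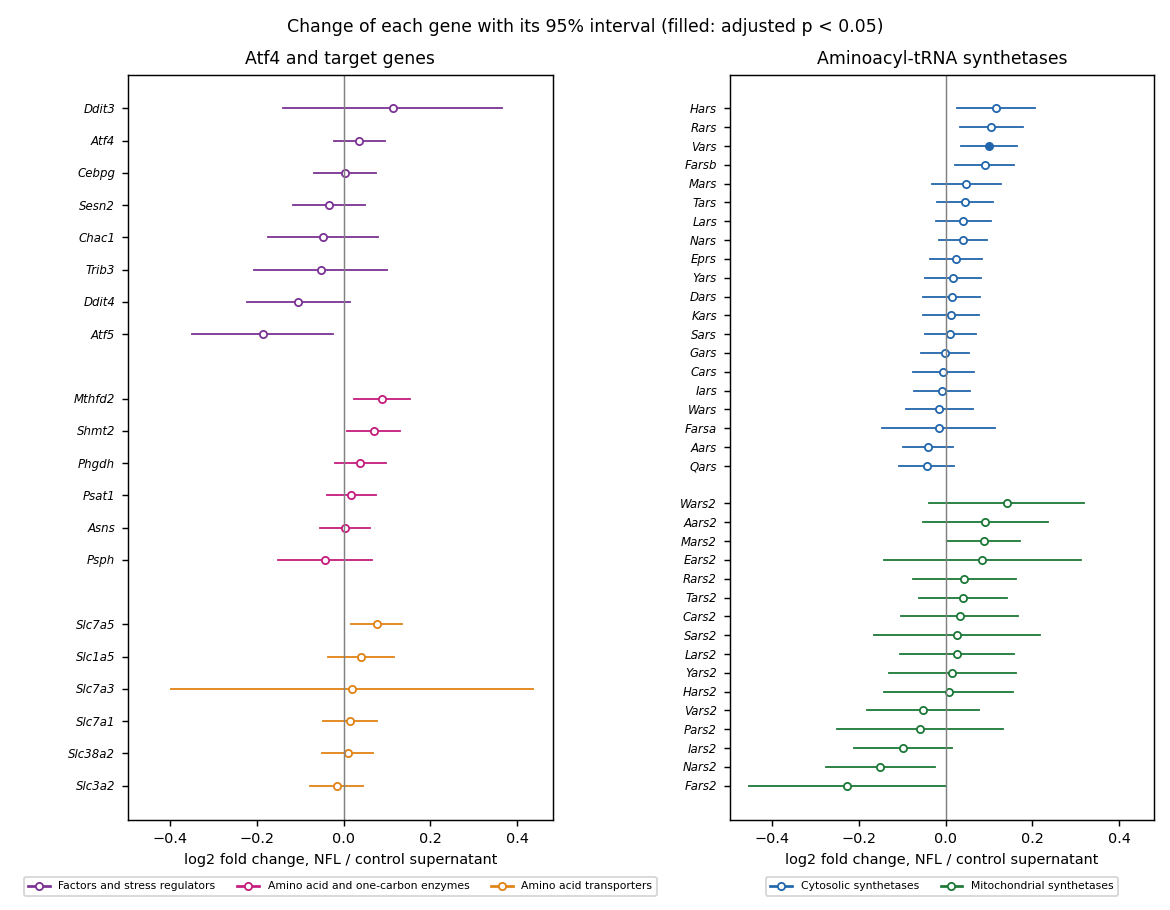
Log2 fold change of 56 of the 57 tested genes, NFL over control supernatant (x axis), with its 95% interval from edgeR as a line; colours mark the groups of genes and a filled point an adjusted p under 0.05. Vars carries the single filled point, and the intervals of 47 of the 57 tested genes include 0.

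**Figure D2:**
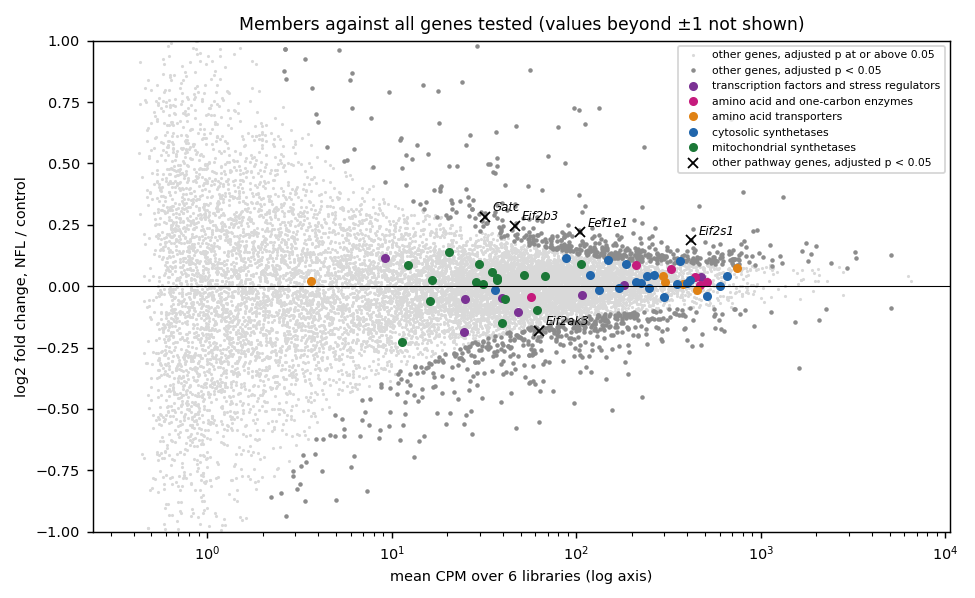
Log2 fold change against mean CPM over the 6 libraries (log axis) for all genes tested, with the ATF4 targets and synthetases in colour, genes with an adjusted p under 0.05 in dark grey and the called genes of the wider pathway as crosses; 90 of 14082 genes lie outside the y axis. The coloured points, called or not, lie close to 0, between -0.23 and 0.14. The 5 crosses are called genes only, so their distance from 0 follows from that choice and is no comparison with the coloured points.

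Among the transcription factors and stress regulators, 0 of 8 tested genes passed the threshold in edgeR, DESeq2 or limma-voom, 1 had an unadjusted p under 0.05, 3 lay above 0 and 5 below, and the median log2 fold change was -0.04 (-0.02 without control library 1 and -0.03 with thinned counts). Atf4 mRNA was read at 479, 453 and 479 CPM in the control libraries and at 487, 477 and 484 CPM in the NFL libraries. The lowest library was a control, and the groups overlapped. Its mean was 470.5 ± 14.7 CPM (SD, n = 3) in control and 483 ± 5.30 CPM in NFL cultures, a log2 fold change of 0.04 (SE 0.03, adjusted p = 0.565, edgeR), with a 95% interval of -0.02 to 0.09. Without control library 2 it was 0.014.

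Atf5, a related factor of the mitochondrial stress response, had 24.6, 27.6 and 26.8 CPM in control and 23.5, 25.0 and 20.7 CPM in NFL libraries. The lowest value was an NFL library, and the NFL library at 25.0 CPM lay above the lowest control. The log2 fold change was -0.19 (SE 0.08, adjusted p = 0.176, edgeR), the lowest of this group of genes, and it was -0.11 without NFL library 3. Atf5 overlaps Nup62, read at 134 CPM from the other strand, and whether the counting used strand is not given, so reads of the overlap could belong to either gene.

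Ddit3 encodes CHOP, a factor linked to cell death under prolonged stress. It had 8.74, 7.97 and 9.66 CPM in control and 8.76, 9.48 and 10.4 CPM in NFL libraries, and 2 of the 3 NFL libraries lay within the control range. The log2 fold change was 0.11 (SE 0.13, adjusted p = 0.703, edgeR), and it was 0.06 without control library 2, 0.05 without NFL library 3, 0.17 without NFL library 1 and 0.19 without control library 3. It shares 68 bases with Mars on the other strand, which had 119 CPM.

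Ddit4 encodes REDD1, an inhibitor of the growth kinase mTORC1. It had 52.5, 47.2 and 51.4 CPM in control and 45.2, 46.2 and 49.5 CPM in NFL libraries, so that 1 NFL library lay within the control range. The log2 fold change was -0.10 (SE 0.06, adjusted p = 0.343, edgeR). The other members of the group were Cebpg, a dimer partner of ATF4, at 0.00, Sesn2, which restrains mTORC1, at -0.03, Chac1, which degrades glutathione, at -0.05 and Trib3, a pseudokinase that dampens ATF4, at -0.05 on the log2 scale.

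Among the enzymes of amino acid and one-carbon metabolism, 0 of 6 passed the threshold in edgeR, DESeq2 or limma-voom, 5 lay above 0 and 1 below, and 2 had an unadjusted p under 0.05. Those 2 were Mthfd2 and Shmt2, mitochondrial folate enzymes whose groups did not overlap, where 11.5% of all genes were higher without overlap. From the wider pathway list, the mitochondrial folate enzymes Mthfd1l and Aldh1l2 were at 0.03 and -0.04 on the log2 scale, and their groups overlapped. Mthfd2, which oxidises methylene-folate, had 205, 204 and 205 CPM in control and 221, 214 and 218 CPM in NFL libraries. Every NFL library lay above every control. Its means were 204.7 ± 0.617 and 218 ± 3.80 CPM (SD, n = 3), with a log2 fold change of 0.09 (SE 0.03, adjusted p = 0.0967, edgeR). Shmt2, which splits serine into glycine and a carbon unit for folate, had 314, 327 and 314 CPM in control and 334, 332 and 334 CPM in NFL libraries. The NFL libraries again lay above all controls, with a log2 fold change of 0.07 (SE 0.03, adjusted p = 0.181, edgeR).

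Asns, asparagine synthetase and one of the best known ATF4 targets, had 480, 471 and 460 CPM in control and 472, 478 and 464 CPM in NFL libraries. The groups overlapped throughout, at a log2 fold change of 0.00 with a 95% interval of -0.05 to 0.06. The 3 enzymes that make serine from a glycolytic intermediate were Phgdh at 0.04, Psat1 at 0.02 and Psph at -0.04 on the log2 scale. Psph had 59.3, 57.6 and 56.2 CPM in control and 54.8, 58.5 and 54.8 CPM in NFL libraries (adjusted p = 0.750, edgeR), with 1 NFL library inside the control range. Its log2 fold change was between -0.02 and -0.03 without control library 1, NFL library 1 or NFL library 3, between -0.06 and -0.07 without control library 3 or NFL library 2, and -0.04 without control library 2. Psph overlaps Cct6a, which was read at 602 CPM from the other strand.

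Among the amino acid transporters, 0 of 6 passed the threshold in edgeR, DESeq2 or limma-voom, 5 lay above 0 and 1 below, and 1 had an unadjusted p under 0.05. That gene was Slc7a5, the light chain of the LAT1 transporter for leucine and other large neutral amino acids, with 733, 761 and 689 CPM in control and 782, 759 and 757 CPM in NFL libraries. Control library 2, at 761 CPM, lay above 2 of the NFL libraries, so the groups overlapped. Its means were 728 ± 36.6 and 766 ± 14.0 CPM (SD, n = 3), a log2 fold change of 0.08 (SE 0.03, adjusted p = 0.119, edgeR). Without control library 2 the log2 fold change was 0.11 with an adjusted p of 0.00407, past the threshold, and without control library 3 it was 0.04 with an adjusted p of 0.591. Slc3a2, the heavy chain that carries LAT1 to the membrane, was at -0.02 on the log2 scale.

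Slc1a5, a glutamine transporter also called ASCT2, had 288, 267 and 320.2 CPM in control and 313, 299 and 289 CPM in NFL libraries. The controls held both the highest and the lowest value, and the log2 fold change was 0.04 (SE 0.04, adjusted p = 0.642, edgeR). It was -0.01 without control library 2, 0.01 without NFL library 1 and 0.07 without NFL library 3, and without control library 3 it was 0.11 with an adjusted p of 0.0476. Slc7a3, an arginine and lysine transporter, was barely read, at 3.54, 4.02 and 3.40 CPM in control and 4.35, 2.50 and 4.19 CPM in NFL libraries. The NFL libraries held the extremes, and the log2 fold change was 0.02 with a 95% interval of -0.40 to 0.44, the widest of the 57 genes, so no direction can be read at this depth. Slc7a1, the main importer of arginine and lysine, and Slc38a2, an importer of small neutral amino acids, were at 0.02 and 0.01 on the log2 scale.

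**Figure D3:**
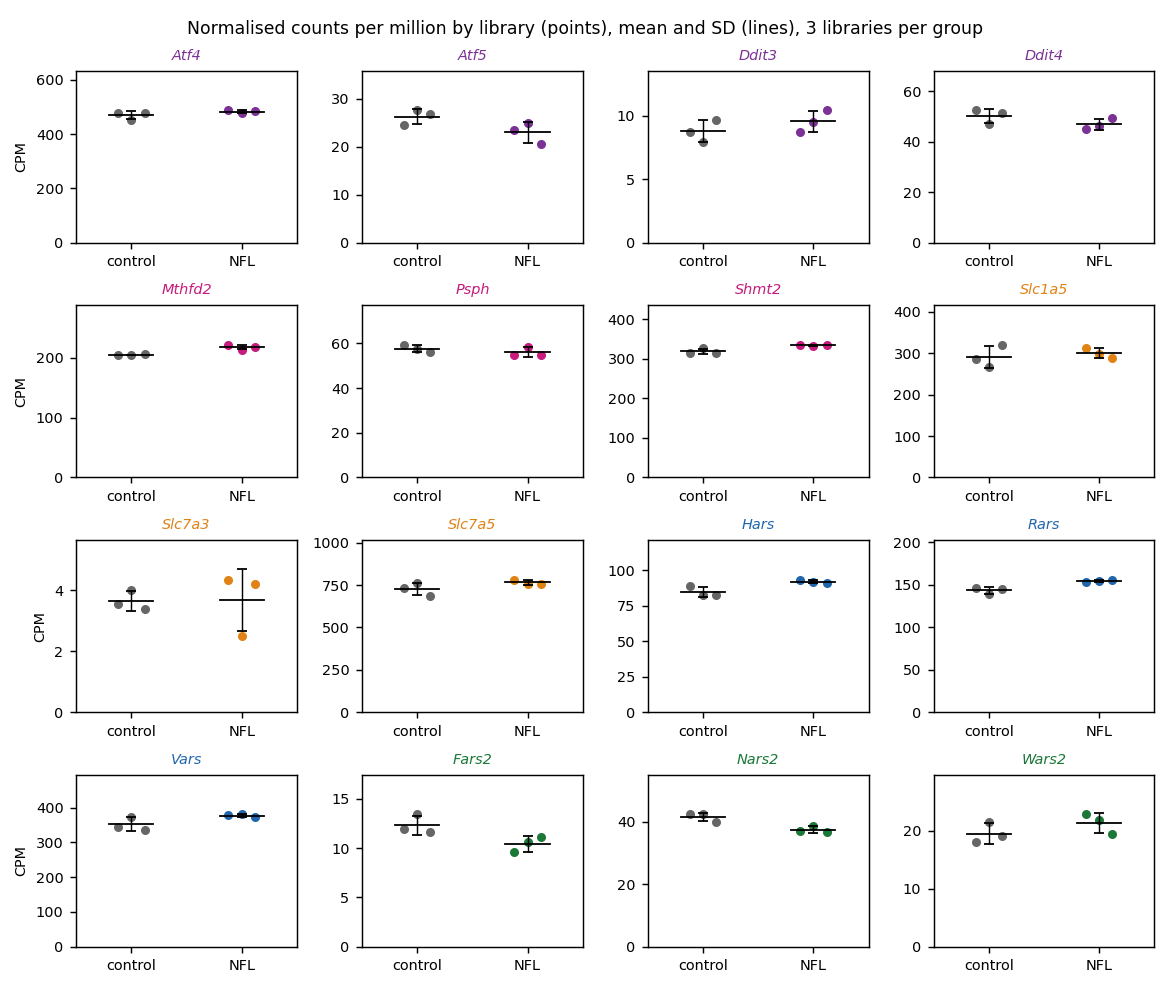
CPM in each of the 3 control and 3 NFL libraries (points) for Atf4 and the members of each group with a call or the largest fold changes (16 genes), with the mean and SD as lines and each y axis from 0. Every NFL point lies above every control point for Mthfd2, Shmt2, Hars and Rars, and below for Fars2 and Nars2, while the points of the other 10 genes overlap.

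The cytosolic synthetases attach amino acids to the tRNAs used on cytosolic ribosomes. Of the 20 genes, 1 rose and 0 fell, 13 lay above 0 and 7 below, and the median log2 fold change was 0.02 (0.0014 with library size alone, 0.041 with GC and length offsets and 0.024 with thinned counts or without control library 1), with a range of -0.04 to 0.12. Among all genes tested within the same range of mean CPM, 11.8% of 5747 passed the threshold. The summed CPM of the 20 genes was 5656, 5617 and 5622 in control and 5725, 5683 and 5737 in NFL libraries. The means of 5632 ± 21.2 and 5715 ± 28.4 CPM (SD, n = 3) differed by 1.47%, and the groups did not overlap with TMM scaling. They did overlap with library size alone, where the highest control was at 5652 CPM and the lowest NFL library at 5651 CPM.

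Vars had 346, 374 and 336 CPM in control and 378, 381 and 372 CPM in NFL libraries. Control library 2 lay above the lowest NFL library, so the groups overlapped. The mean was 352 ± 19.8 CPM (SD, n = 3) in control and 377 ± 4.67 CPM in NFL cultures, and Vars rose by a log2 fold change of 0.10 (SE 0.03, adjusted p = 0.0439, edgeR). The exact two-sided permutation test of the CPM gave p = 0.2, where 3 against 3 libraries cannot go below 0.1. The call was lost without control library 1 or 3 or without any 1 of the NFL libraries (adjusted p from 0.108 to 0.280), with library size alone (0.0982) and in DESeq2 (0.0964).

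Rars, the arginine enzyme, had 146, 139 and 145 CPM in control and 153, 154 and 156 CPM in NFL libraries. Every NFL library lay above every control, and the log2 fold change was 0.11 (SE 0.04, adjusted p = 0.0656, edgeR). Hars, the histidine enzyme, had 89.0, 82.7 and 82.9 CPM in control and 93.5, 91.7 and 91.1 CPM in NFL libraries. Its groups did not overlap either, at a log2 fold change of 0.12 (SE 0.04, adjusted p = 0.112, edgeR), and it shares 198 bases with Hars2 on the other strand. Farsb, a subunit of the phenylalanine enzyme, and Yars, the tyrosine enzyme, were the further genes of this group without overlap, at 0.09 and 0.02 on the log2 scale. Farsa, the partner subunit of Farsb, was at -0.02, and the remaining cytosolic genes ran from -0.04 for Qars, the glutamine enzyme, to 0.05 for Mars, the methionine enzyme.

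The cytosolic genes found with the composite element had changes between -0.04 and 0.05 on the log2 scale. Gars, the glycine enzyme, had 608, 604 and 599 CPM in control and 609, 609 and 592 CPM in NFL libraries, with a log2 fold change of 0.00 and a 95% interval of -0.06 to 0.06. Aars, the alanine enzyme, had 528, 528 and 507 CPM in control and 508, 503 and 509 CPM in NFL libraries, with a log2 fold change of -0.04. Tars, the threonine enzyme, had 264, 249 and 263 CPM in control and 267, 264 and 271 CPM in NFL libraries, with a log2 fold change of 0.05. The groups overlapped in all 3 genes. Iars and Yars were at -0.01 and 0.02, and the other genes with the element, Asns, Chac1 and Trib3, at 0.00, -0.05 and -0.05 on the log2 scale. None of these 8 genes passed the threshold in edgeR, DESeq2 or limma-voom. With 7.00% of all genes called in edgeR, 8 genes are too few to compare shares. Whether Vars, Rars, Hars and Slc7a5 hold the element was not analysed here.

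The mitochondrial synthetases are nuclear genes whose enzymes charge the tRNAs of the mitochondrial genome. Of the 17 genes, 0 passed the threshold in edgeR, DESeq2 or limma-voom, 2 had an unadjusted p under 0.05, 12 lay above 0 and 5 below, and the median log2 fold change was 0.03. That median was 0.013 with library size alone, 0.046 with GC and length offsets, 0.041 without control library 1 and 0.0074 without NFL library 3. Among all genes in the same range of mean CPM, 7.30% of 6066 passed. The summed CPM was 641 ± 9.82 in control and 647 ± 6.62 in NFL cultures (SD, n = 3), and the sums overlapped.

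Nars2, the mitochondrial asparagine enzyme, had 42.4, 42.4 and 40.0 CPM in control and 37.0, 38.7 and 36.7 CPM in NFL libraries. Every NFL library lay below every control, and the log2 fold change was -0.15 (SE 0.06, adjusted p = 0.158, edgeR). Fars2, the phenylalanine enzyme, had 11.9, 13.4 and 11.6 CPM in control and 9.57, 10.6 and 11.2 CPM in NFL libraries. Its groups did not overlap either, at -0.23 on the log2 scale (SE 0.11, adjusted p = 0.260, edgeR). It overlaps Lyrm4 on the other strand, read at 10.6 CPM.

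Wars2, the tryptophan enzyme, lay on the other side of 0, with 18.0, 21.6 and 19.0 CPM in control and 22.9, 21.9 and 19.5 CPM in NFL libraries. The groups overlapped, and the log2 fold change was 0.14 (SE 0.09, adjusted p = 0.421, edgeR). It ran from 0.09 without control library 1 to 0.21 without control library 2. Aars2, the alanine enzyme, was the 1 mitochondrial gene with all NFL libraries above all controls, at 0.09 on the log2 scale. The remaining mitochondrial genes ran from -0.10 for Iars2, the isoleucine enzyme, to 0.09 for Mars2, the methionine enzyme, which with Nars2 had an unadjusted p under 0.05. The wider intervals of this group of genes went with lower counts, and 9 of the 17 genes, against 19 of the 20 cytosolic genes, had the whole 95% interval within the bound of 15%.

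The levels of the synthetases differed by compartment. Exon length was the union of all annotated exons of a gene, so values and ratios per kb depend on how many transcripts are annotated. Per kilobase of exon, in the control cultures, the cytosolic genes had a median level of 45.3 CPM per kb, from 8.07 for Farsa to 194 for Gars, and the mitochondrial genes a median level of 6.07 CPM per kb, from 2.14 for Fars2 to 18.5 for Rars2. In all 17 pairs of a mitochondrial gene and the cytosolic gene for its amino acid, the cytosolic gene had the higher level per kb, with a median ratio of 6.60. Among these pairs the ratio was lowest for Rars over Rars2, at 2.40, and highest for Nars over Nars2, at 24.9. For phenylalanine, the subunit gene Farsa was paired with Fars2. The other subunit gene, Farsb, at 68.9 CPM per kb, was in no pair, and its ratio to Fars2 would be above this highest value. Eprs, a fused enzyme for glutamate and proline, served in the pairs with Ears2 and with Pars2. Gars and Kars have no mitochondrial counterpart among these genes because each encodes the enzyme of both compartments. Among ATF4 and its targets the highest levels in control were those of Atf4, at 199.5 CPM per kb, Slc7a5, at 196, and Phgdh, at 174, and the lowest was that of Slc7a3, at 0.965.

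**Figure D4:**
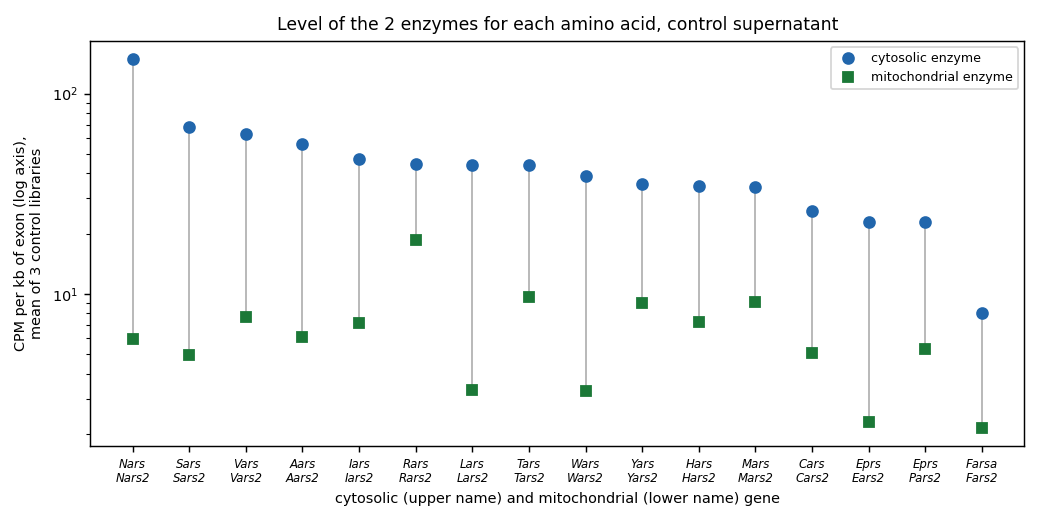
Level in CPM per kb of exon (log axis, mean of the 3 control libraries) of the cytosolic gene (circle) and the mitochondrial gene (square) for 16 of the 17 pairs, ordered by the cytosolic level. The circle lies above the square in every pair, by 2.40 to 24.9 times.

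Other genes of the pathway were taken from a list of 45, set with earlier results of these data known. The calls lay among eIF2 factors and partners of the synthetases. Of 41 genes that could be tested, 4 rose and 1 fell (12.2%, beside the 7.00% of all genes). In the CPM range of ATF4 and its targets 8.88% of 10130 genes passed, and in that of the cytosolic synthetases 11.8% of 5747. Eif2s1 encodes the alpha subunit of eIF2, which the stress kinases phosphorylate, and had 404, 384 and 389 CPM in control and 435, 447 and 459 CPM in NFL libraries. All NFL libraries lay above all controls, and it rose by a log2 fold change of 0.19 (SE 0.03, adjusted p = 1.13e-05, edgeR). Eif2b3, a subunit of the exchange factor that recharges eIF2, rose from a mean of 42.7 ± 2.26 to 50.5 ± 2.28 CPM (SD, n = 3), at 0.25 on the log2 scale (adjusted p = 0.00539, edgeR). The other subunit genes, Eif2b1, Eif2b2, Eif2b4 and Eif2b5, were at 0.08, 0.06, 0.08 and 0.05 on the log2 scale. Their groups overlapped and they did not pass in edgeR.

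Eif2ak3, which encodes the endoplasmic reticulum kinase PERK, had 61.3, 74.8 and 64.2 CPM in control and 56.8, 58.5 and 60.0 CPM in NFL libraries. It fell by 0.18 on the log2 scale (adjusted p = 0.0393, edgeR), without overlap between groups. That call was lost in 7 of 15 alternatives, among them DESeq2 (0.143), limma-voom (0.0728), offsets for GC content and length (0.0961) and the fit without control library 2, which stood highest (log2 fold change -0.10, adjusted p = 0.357), or without any 1 NFL library (0.0963 to 0.170). The other 3 kinases of eIF2, Eif2ak1, Eif2ak2 and Eif2ak4, were at 0.04, -0.01 and 0.09 on the log2 scale and did not pass.

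Partners of the synthetases gave 2 calls among 8 genes (25.0%, beside the 7.00% of all genes), a list too short to compare shares. That list also held Tarsl2, itself a threonine synthetase gene, which the name pattern of the synthetases did not match. Tarsl2 was lower with NFL without overlap, at -0.15 on the log2 scale (adjusted p = 0.232, edgeR), and did not pass. Eef1e1, a scaffold of the complex that holds several cytosolic synthetases, had 97.6, 97.7 and 96.6 CPM in control and 120.1, 113 and 107 CPM in NFL libraries, and rose by 0.22 on the log2 scale (adjusted p = 2.91e-04, edgeR). Gatc, a subunit of the amidotransferase that makes glutaminyl-tRNA in mitochondria, had 31.5, 28.2 and 26.9 CPM in control and 37.0, 35.1 and 33.7 CPM in NFL libraries, and rose by 0.28 (adjusted p = 0.00764, edgeR). All NFL libraries lay above all controls for Eef1e1 and for Gatc. Without control library 3 the calls of Gatc (adjusted p = 0.0749) and Eif2b3 (0.0577) were lost, and that of Gatc also without NFL library 1 (0.0603). Among 23 further ATF4 targets, 19 could be tested and 0 passed in edgeR, DESeq2 or limma-voom, with 2 at an unadjusted p under 0.05. Of the 19, 5 lay above 0 and 14 below, with a median log2 fold change of -0.03, and Atf3, Stc2, Cbs and Vldlr had at most 5 counts in any library.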

How the data were processed

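RNA was measured in 6 libraries of mouse cells labelled as T cells, 3 with control and 3 with NFL macrophage supernatant. The authors selected poly(A) RNA, sequenced it on an Illumina instrument and deposited raw read counts of 55401 genes, not normalized and not pooled, with a column per sample. The submitters' processing notes name GRCm39, R 4.2.1 and limma 3.54.2. Not given in the sources used here are the aligner, the counting program, the annotation release and whether strand was used. Symbols covered 55141 identifiers, and 54349 identifiers with version occur in GENCODE M21 (GRCm38), which gave exon lengths and overlaps. No gene coordinates are given because the builds differ, and promoter coordinates are those of the RefSeq windows. The promoter of Mars was found under its newer symbol Mars1.

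The two-sided quasi-likelihood test of edgeR 4.0.16 (R 4.3.3; glmQLFit, then glmQLFTest) was fitted to the deposited counts after filterByExpr (minimum count 10, minimum total 15) and TMM scaling. P-values were adjusted by Benjamini-Hochberg over the 14082 genes left, and an adjusted p under 0.05 was called. The biological coefficient of variation was 3.48%, and totals of 15843045 to 24639756 counts set the precision. Standard errors and 95% intervals came from the fitted model with the moderated dispersion. The genes and lists were chosen with earlier results of these data known. Genes described by library are Atf4 and, in each group of genes, those past the threshold, filled up to 3 by absolute log2 fold change; Asns, Gars, Aars and Tars were added for their promoters. Called pathway genes were also named. The 15 alternative fits used other scalings, filters, tests (DESeq2 1.42.0, limma-voom of limma 3.58.1), a replicate block, thinned counts, GC and length offsets, or left out 1 library. The procedure was tested on simulated counts. Figures were drawn with matplotlib 3.10.9. The values of 1 gene are not reported here; list totals contain it.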

Additional observations from a re-analysis of the deposited data

How the results depend on the processing

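Of the 57 genes, 4 passed the threshold in any of the 15 alternative fits (Vars, Slc7a5, Mthfd2 and Slc1a5). No mitochondrial synthetase passed in any of them. The number of all genes past the threshold, 986, was 605 with the DESeq2 Wald test, 500 at an adjusted p under 0.01 and 508 to 966 with 1 library left out. The number of cytosolic synthetases, 1, was 0 with library size alone, with the DESeq2 Wald test and at an adjusted p under 0.01, 3 at an adjusted p under 0.1 and 0 to 1 with 1 library left out. The number of ATF4 target genes, 0, was 2 with GC and length offsets (Mthfd2, adjusted p = 0.0438, and Slc7a5, 0.0348), 1 at an adjusted p under 0.1 and 0 to 1 with 1 library left out. The log2 fold change of Slc1a5 reversed in 1 fit and ran from -0.014 to 0.11 with 1 library left out. That of Slc7a3 reversed with limma-voom (-0.010), with thinned counts (-0.10) and with 1 library left out (-0.11 to 0.24). The median of the cytosolic synthetases moved between 0.0014 (library size alone) and 0.041 (GC and length offsets), and the cause was not tested. The same numbers are given to control and NFL libraries. Deviations of same-numbered libraries from their group means correlated at 0.0115, 0.0148 and 0.00742, and those of differently numbered libraries at -0.0160 to 0.00332. Each same-numbered value was the highest for its libraries, but all were close to 0, and the numbers were not taken to pair the libraries. With the replicate block, 1049 genes passed, among them 1 cytosolic synthetase, 0 mitochondrial synthetases, 0 ATF4 target genes and 5 other pathway genes. Depth limits the low genes most, as the interval of Slc7a3 shows.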
